A study of Mus musculus with 2 samples.

Results

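The cells described here are cycling CD8 T cells from islets of the NOD mouse, which becomes diabetic through autoimmunity. A cell barcode was counted as one when it had at least 500 detected genes, at most 10% mitochondrial transcripts, at least 2 transcripts of Cd8a and Cd8b1 together, none of Cd4, at least 1 of the CD3 chains Cd3d, Cd3e and Cd3g, at most 1 of Cd79a, C1qa and Lyz2 together, and at least 2 of Mki67 and Top2a together. This gave 725 cells of 24413 barcodes, 470 of 13859 in the WT NOD library and 255 of 10554 in the library labelled NOD.Cxcl16-/-. Transcripts are unique molecular identifiers (UMIs), each standing for 1 captured mRNA molecule. The other CD8 T cells, which met the same conditions with fewer than 2 transcripts of Mki67 and Top2a, numbered 1733 and 1194. Throughout, a pair of values gives the WT NOD library first.

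Both libraries held live CD45+CD31- cells, that is, blood-derived cells without endothelium, sorted from hand-picked islets of 12-week-old females. One came from NOD mice and the other from NOD.Cxcl16-/- mice, which are labelled as lacking the chemokine Cxcl16, the ligand of the receptor Cxcr6. Single-cell 3′ libraries (10x Genomics v3.1) were made from each, and neither the number of animals behind a library nor the deleted part of Cxcl16 is given in the sources used here. With 1 library for each genotype, genotype, animals and library preparation cannot be told apart, and no test between the genotypes was possible. In the cycling CD8 cells, Cxcl16 had 141 UMIs, or 15.4 CPM (counts for each 1000000 UMIs of the population), for WT NOD and 81 UMIs, or 15.5 CPM, in the other, so its transcript did not separate the genotypes and the second library is called by its label.

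CD8 T cells recognise peptides on class I MHC molecules and kill the cells that present them, and in NOD islets they take part in the destruction of insulin-producing beta cells. A T cell that divides first copies its DNA and its histones in S phase, then condenses and separates its chromosomes in mitosis. Mki67 encodes the Ki-67 protein that coats mitotic chromosomes, and Top2a encodes the topoisomerase that untangles copied DNA. In long-lasting responses, a stem-like CD8 pool that keeps the transcription factor Tcf7 is known to feed more differentiated effector and exhausted cells.

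The libraries held 93553185 and 98681133 UMIs over all barcodes, and 12252 and 10214 barcodes passed the gene and mitochondrial limits. Cycling CD8 cells were deep, with a median of 15904 and 16944 UMIs against 5019 and 5500 in other CD8 cells, or 3.17 and 3.08 times as many. Their mitochondrial share, a sign of damaged cells when high, had a median of 0.951% and 1.02% against 0.966% and 1.03%. The libraries shared 45 barcode sequences, of which 2 belonged to cycling CD8 cells of the WT NOD library. A doublet caller (Scrublet), set to mark 0.8% of barcodes for each 1000, marked 41 of 470 (8.72%) and 13 of 255 (5.10%) cycling CD8 cells, against 4.85% and 3.60% of other CD8 cells. Over all barcodes scored it marked 1201 of 12252 (9.80%) and 835 of 10214 (8.18%), a number fixed by that setting. The share in cycling CD8 cells lay below this in both libraries. No barcode was removed on that score.

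The label was checked against the markers. Cd8a stood at 422 and 488 CPM and Cd8b1 at 351 and 374 CPM, but both are part of the selection, as is the absence of Cd4. Gzmk, a granzyme of memory-like and exhausted CD8 cells, and Rgs16, a regulator of G-protein signalling induced by T cell activation, were not used to choose the cells. Gzmk read 254 and 239 CPM against 215 and 173 CPM in other CD8 cells, and Rgs16 read 417 and 346 CPM against 351 and 301 CPM. Both markers were therefore present at about the level of CD8 cells in general, and neither set the cycling cells apart by 2-fold.

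Markers of other cells were present, at levels that differed between the lists. Over 18 myeloid and dendritic genes the summed level was 2369 and 2728 CPM, close to the 2431 and 3212 CPM of other CD8 cells. Lyz2, a gene the selection bounds, was at 2.51 and 3.26 CPM. Of genes it does not bound, Cst3 read 502 and 527 CPM and Cd68 9.70 and 12.1 CPM. H2-Aa read 367 and 464 CPM, with a transcript in 27.7% and 26.3% of cycling cells. Over 13 B and plasma cell genes the summed level was 339 and 998 CPM against 898 and 469 CPM. The 16 islet and exocrine genes summed to 81.0 and 398 CPM against 102 and 164 CPM, and 4 of them were at 0 in each library. The 11 natural killer and innate lymphoid genes summed to 225 and 278 CPM, and the 9 CD4 and regulatory T cell genes to 71.4 and 61.7 CPM. The part of these transcripts in the results was not tested.

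Cycling CD8 cells made up 21.3% of all CD8 cells in the WT NOD library (470 of 2203; 95% exact Clopper-Pearson interval 19.6 to 23.1) and 17.6% in the library labelled NOD.Cxcl16-/- (255 of 1449; 15.7 to 19.7). The second share was lower by 3.74 percentage points, with an interval of the difference from 1.07 to 6.35 points. Intervals here and below cover counting error only and hold nothing of the spread between mice. A cell with more UMIs passes the selection more easily, so every barcode was also thinned to 2000 UMIs and selected again. The shares were then 9.15% (114 of 1246; 7.61 to 10.9) and 6.39% (58 of 908; 4.89 to 8.18), a difference of 2.76 points (0.397 to 5.06), with 212 and 41 shallower cells left out. As a share of all barcodes passing the filters, cycling CD8 cells were 3.84% and 2.50%, whereas cycling CD4 T cells were 1.36% and 1.96%. The CD4 cells needed a Cd4 transcript and no Cd8a or Cd8b1 transcript, with the other limits the same. Their lineage limit thus differs from that of the CD8 cells.

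The selection has a threshold, and the cells near it graded from outside to inside. Among CD8 cells with 1 transcript of Mki67 and Top2a (295 and 184 cells), the 47 mitosis genes made up a median of 0.0627% and 0.0569% of a cell's UMIs. With exactly 2 transcripts (108 and 46 cells) the median was 0.131% and 0.0620%. With 4 or more (323 and 182 cells) it was 0.655% and 0.620%. The median was thus highest well inside the threshold, and in the second library it hardly differed between 1 and 2 transcripts. The median cycling cell carried 10 and 11 transcripts of the 2 genes, and the highest carried 85 and 87.

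Cells with few transcripts of either cell cycle list were counted. A cell was called low when its replication and its mitosis share both lay at or below the 95th percentile of other CD8 cells of its own library. The mitosis limit was 0.444% and 0.155% of a cell's UMIs, and the replication limit 0.308% and 0.218%. The 2 libraries were thus held to different limits, and their shares of low cells are not directly comparable. By these limits 101 of 470 cycling cells (21.5%; 17.9 to 25.5) and 55 of 255 (21.6%; 16.7 to 27.1) were low. They were concentrated near the threshold, with 84 of 147 (57.1%) and 51 of 73 (69.9%) of the cells with 2 or 3 transcripts against 17 of 323 (5.26%) and 4 of 182 (2.20%) of those with more. The low cells also held fewer UMIs, with a median of 7999 and 9872 against 17622 and 18678.5 in the rest. They are one end of a range and were kept in every value unless stated.

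Among the genes of DNA copying, nearly all measured ones were at least 2-fold higher in cycling CD8 cells in both libraries. The UMIs of each population were summed and scaled to CPM, genes with a mean of at least 10 CPM were compared, and a gene was counted when the log2 ratio of CPM + 1 was at least 1 in each library. By that rule 424 of 7527 genes were higher (5.63%) and 160 lower (2.13%), and the median gene lay at -0.01 and -0.03 on the log2 scale. Of the 38 replication fork and S phase genes, 37 passed the filter and 35 were higher, with a median log2 ratio of 2.14 and 2.22. Cells were chosen on 2 genes of the same programme, so these counts describe the selection and carry no test. The filter averages cycling and comparison cells, here and below. A gene scarce in other CD8 cells thus passes it only through its level in cycling cells, which favours a ratio past the fold. In other CD8 cells alone, 22 of the 38 replication genes had a mean of at least 10 CPM.

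The helicase loader Cdc6 read 44.6 CPM against 2.68 CPM in the WT NOD library and 43.7 against 1.38 CPM in the other, log2 ratios of 3.63 and 4.23. Clspn, which signals stalled replication forks, read 111 against 8.22 CPM and 118 against 4.02 CPM. Both genes were scarce in other CD8 cells of each library. The clamp Pcna, which other CD8 cells also carried, was higher by less (350 against 118 CPM and 346 against 101 CPM, log2 1.56 and 1.76). Mcm6, a helicase subunit, and Rpa2, which binds single-stranded DNA, missed the fold in at least 1 library, with log2 ratios of 0.97 and 1.02 for Mcm6 and 0.83 and 0.94 for Rpa2.

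Genes that make the building blocks of DNA were higher in part. Of 18 nucleotide synthesis genes, 10 were past the fold and none was lower, with a median log2 ratio of 1.24 and 1.19. Rrm2, the regulated subunit of ribonucleotide reductase, read 215 against 16.3 CPM and 212 against 9.16 CPM. Thymidine kinase Tk1 read 87.3 against 10.9 CPM and 84.1 against 5.02 CPM. Thymidylate synthase Tyms read 221 against 33.7 CPM and 220 against 25.4 CPM. These genes of deoxynucleotide supply led the list.

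Mitosis genes had the largest share past the fold among the lists. Of 47 in the files, 45 passed the filter and all 45 were past the fold, with a median log2 ratio of 3.35 and 3.92. Anln, which builds the contractile ring, and the transcription factor Foxm1 did not pass the filter. In other CD8 cells alone, 17 of the 47 had a mean of at least 10 CPM, so the others passed through their level in cycling cells. The count of 45 is therefore no test of the list. Mki67 itself read 285 against 7.23 CPM and 337 against 5.40 CPM, and Top2a read 502 against 22.0 CPM and 550 against 17.7 CPM, both by selection. Nusap1, which bundles spindle microtubules, read 244 against 9.91 CPM and 257 against 3.01 CPM. Hmmr, a spindle assembly protein, read 101 against 3.27 CPM and 110 against 1.38 CPM, and the centromere protein Cenpf 177 against 8.62 CPM and 197 against 4.77 CPM. The kinase Bub1 of the spindle checkpoint read 40.2 against 1.29 CPM and 43.7 against 0.878 CPM. In both libraries each of these genes was scarce in other CD8 cells. With Ckap2l, Hist1h1b, Hist1h2af and Hist1h2ab, Nusap1, Hmmr, Cenpf and Bub1 were the 8 genes of the cell cycle lists furthest from other CD8 cells apart from Mki67 and Top2a.

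Promoters of the mitosis and replication lists were searched for short words, which are shown because the cells are compared on these 2 lists below. Mitosis genes are known to be controlled through the CHR element (TTTGAA) and CCAAT boxes, and S phase genes through E2F sites. The 250 bases before each start in RefSeq (GRCm38.p6) were searched on both strands for TTTGAA, for CCAAT and for the E2F words TTTCCCGC, TTTGGCGC, TTTCGCGC and TTTGCCGC. The words were chosen after trial counts, and each was counted whether or not it overlapped another. TTTGAA was found in 16 of 42 mitosis promoters (38.1%), 11.1% of 36 replication promoters and 16.0% of all 32851 promoters. An E2F word was found in 10 of 36 replication promoters (27.8%), 4.76% of mitosis promoters and 1.86% of all. CCAAT was found in 73.8%, 61.1% and 33.8% in the order mitosis, replication and all. The words did not follow the programme in every list. TTTGAA was also found in 5 of 16 histone and chromatin promoters (31.25%) and in 5 of 20 promoters of cytotoxicity and effector genes (25%). An E2F word was found in 0 of 19 promoters of nucleotide synthesis genes and in 2 of 16 histone and chromatin promoters (12.5%). Of the lists' genes, 40 of 47 mitosis and 29 of 38 replication genes matched a promoter, and a match is a description of letters, not a site. The windows below hold 60 of those bases, 5′ to 3′ along the gene's strand. The match nearest the start is in capitals (TTCAAA is TTTGAA on the opposite strand, and GCGGGAAA is TTTCCCGC), so a further match stays in lower case. For the CHR word they show both selection genes and 3 genes high in the mitosis list, and for E2F 3 genes high in the replication list.
Mki67, chr7:135716445-135716504, minus strand: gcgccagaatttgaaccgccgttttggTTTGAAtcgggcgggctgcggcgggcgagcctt
Top2a, chr11:99024190-99024249, minus strand: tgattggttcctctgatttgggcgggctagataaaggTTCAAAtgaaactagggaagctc
Ckap2l, chr2:129297213-129297272, minus strand: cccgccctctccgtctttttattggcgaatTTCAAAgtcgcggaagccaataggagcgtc
Ncapg, chr5:45669865-45669924, plus strand: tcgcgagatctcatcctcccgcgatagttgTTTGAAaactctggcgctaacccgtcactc
Prc1, chr7:80294416-80294475, plus strand: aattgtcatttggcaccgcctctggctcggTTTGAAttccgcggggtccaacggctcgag
Cdc6, chr11:98907986-98908045, plus strand: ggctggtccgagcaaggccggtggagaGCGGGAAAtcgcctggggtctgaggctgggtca
Uhrf1, chr17:56304101-56304160, plus strand: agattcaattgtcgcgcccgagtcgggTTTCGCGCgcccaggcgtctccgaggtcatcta
Hells, chr19:38930901-38930960, plus strand: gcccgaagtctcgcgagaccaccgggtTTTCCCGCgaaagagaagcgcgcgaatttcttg

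The genes shown fall into both parts of the programme. The spindle protein gene Ckap2l read 56.5 against 1.98 CPM and 65.9 against 2.76 CPM, and its word lies 30 bases before the start on the opposite strand. The condensin gene Ncapg read 64.9 against 3.07 CPM and 45.6 against 1.51 CPM, and the cytokinesis gene Prc1 read 158 against 10.5 CPM and 155 against 5.77 CPM. Of the E2F group, Uhrf1, which carries DNA methylation through replication, read 69.7 against 9.91 CPM and 61.1 against 6.02 CPM. The chromatin remodeller Hells read 155 against 28.7 CPM and 138 against 21.6 CPM. These mitosis genes thus differed more from other CD8 cells than Uhrf1 and Hells did, in both libraries. Cdc6, also shown for E2F, had log2 ratios of 3.63 and 4.23. In the second library that was above Ckap2l (4.15) and Ncapg (4.22) and below Prc1 (4.53).

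Histone transcripts were high as a group. Of 84 genes of histones and growth chromatin, 53 passed the filter and 48 were past the fold, with a median log2 ratio of 2.33 and 2.47. The linker histone Hist1h1b read 985 against 40.8 CPM and 1368 against 27.0 CPM, and Hist1h2af read 68.4 against 1.39 CPM and 84.1 against 0.627 CPM. Per cell, this list made up a median of 2.57% and 2.55% of UMIs against 0.657% and 0.635%. Most histone mRNAs of S phase lack a poly(A) tail and their copies are near identical, so the level of a single histone gene in poly(A)-captured 3′ reads is uncertain.

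Of the 424 higher genes, 140 were members of the 4 cell cycle lists or the selection genes Mki67 and Top2a, and 284 were neither. The 12 furthest apart outside the lists included further genes of chromosome copying and division. Esco2, which joins sister chromatids, read 59.6 against 2.08 CPM and 61.7 against 0.878 CPM. Pclaf, the PCNA clamp-associated factor, read 660 against 46.8 CPM and 682 against 25.7 CPM. Cep55, which acts at the final cut between daughter cells, read 106 against 7.53 CPM and 107 against 5.77 CPM. Aspm, at the spindle poles, read 55.2 against 2.28 CPM and 47.9 against 1.38 CPM. Shcbp1, Depdc1a, Knl1, Pbk, Nek2, E2f8, Sgo2a and Ttk completed the 12.

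Individual cells ranged from replication to mitosis transcripts. The mitosis list made up a median of 0.502% and 0.447% of a cell's UMIs, and the replication list 0.314% and 0.294%, against 0.0504% and 0.0482% and 0.0798% and 0.0775% in other CD8 cells. The mitosis share was above the replication share in 270 of 470 cells (57.4%; 52.8 to 62.0) and in 141 of 255 (55.3%; 49.0 to 61.5). Leaving out the cells low on both lists, it was above in 237 of 369 (64.2%) and 124 of 200 (62.0%). The limits that set those cells apart differed between the libraries, as given above. The intervals of the 2 libraries overlapped in each case. No phase was called, since the lists differ in size and in level.

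**Figure D1:**
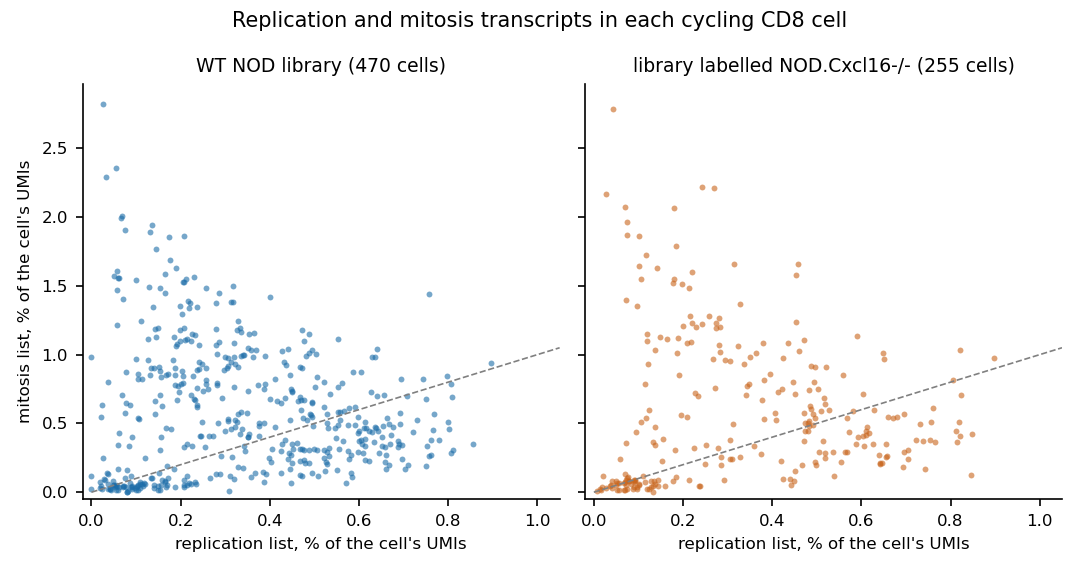
Each point is 1 cycling CD8 cell, with the share of its UMIs in the replication list on the x axis and in the mitosis list on the y axis, both in percent, and 1 panel for each library. The dashed line marks equal shares, and 57.4% and 55.3% of the cells lie above it.

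Transcripts of quiescence and of stem-like CD8 cells were lower as a share of all transcripts. Of 18 stem-like and naive genes, 15 passed the filter, 10 were at least 2-fold lower in both libraries and none was higher, against 2.13% of all compared genes lower, and the median log2 ratio was -1.41 and -1.36. Il7r, the receptor chain for the survival cytokine IL-7, read 29.7 against 155 CPM and 33.2 against 195 CPM. Tcf7 read 83.6 against 191 CPM and 83.0 against 214 CPM, and its relative Lef1 read 49.2 against 163 CPM and 48.7 against 164 CPM. Ccr7, the receptor that guides T cells to lymph nodes, read 54.6 against 134 CPM and 74.9 against 166 CPM. Igfbp4 (3.70 against 27.5 CPM and 4.22 against 31.0 CPM), Dapl1, S1pr1, Bach2 and Bcl2 were also past the fold.

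The 12 lowest genes of all included Igfbp4, Il7r, Patj, Tcp11l2, Scml4, Klf3, Ifit1, Crim1, Kdm5b, Cd55 and Rflnb. Tcp11l2 read 10.0 against 65.6 CPM and 13.6 against 64.5 CPM, and Scml4 17.3 against 78.7 CPM and 15.1 against 77.8 CPM. Klf3, a repressor related to Klf2, read 11.8 against 50.7 CPM and 9.77 against 60.9 CPM. Low levels limit the precision for several of these, Ifit1 being at 5.67 and 1.53 CPM in the cycling cells.

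One gene of the stem-like list ran the other way. Myb, a transcription factor that stem-like T cells use and that also acts in dividing progenitors, read 39.5 against 20.3 CPM and 40.8 against 20.8 CPM, log2 ratios of 0.93 and 0.94 just short of the fold. Slamf6, a surface marker of the stem-like pool, was lower without reaching the fold (log2 -0.90 and -0.99).

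Genes that hold T cells out of the cycle were mostly lower. Of 17 quiescence genes past the filter, 7 were lower, 1 was higher, and the median log2 ratio was -0.90 and -0.87. The antiproliferative gene Btg1 read 562 against 1729 CPM and 709 against 2078 CPM. Klf2, which keeps T cells quiescent and recirculating, read 163 against 487 CPM and 135 against 469 CPM. Txnip, a brake on glucose uptake, read 82.9 against 228 CPM and 69.2 against 219 CPM. Klf3, Foxp1, Tob1 and Tsc22d3 were also lower. The member that was higher, the cyclin-dependent kinase inhibitor gene Cdkn2c, read 40.2 against 11.2 CPM and 37.8 against 10.2 CPM.

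CPM are shares of a cell's transcripts, and cycling cells held about 3 times as many UMIs. Counted as UMIs per cell, 7467 of the 7527 genes were higher in cycling CD8 cells in both libraries. Of the 160 genes lower by CPM, 16 were also lower per cell in both libraries, and 108 were higher per cell. A lower CPM is thus a smaller share of the transcripts, and not in general fewer captured molecules per cell.

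Comparing cells at equal depth gave the same order for the stem-like genes. With every cell thinned to 2000 UMIs (7 and 1 cycling cells and 205 and 40 other CD8 cells left out), a Tcf7 transcript was found in 13.0% (10.0 to 16.4) and 13.4% (9.45 to 18.2) of cycling cells. In other CD8 cells it was found in 27.9% and 34.2%, and in B cells, which should lack it, in 0.977% and 0.516%. Before thinning the shares were 37.4% and 38.8% of cycling against 46.0% and 58.1% of other CD8 cells. Il7r was found in 5.83% and 5.91% of thinned cycling cells against 20.3% and 25.6%, with 1.30% and 0.825% in B cells. Ccr7 and Klf2 are expressed by B cells, whose share therefore sets no background for them, and were likewise less frequent in cycling than in other CD8 cells (6.91% and 5.91% against 17.4% and 19.8% for Ccr7). The median depth before thinning was 4548 and 4705 UMIs in B cells.

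Killing and cytokine genes leaned lower than in other CD8 cells, mostly by less than 2-fold. Of 20 cytotoxicity and effector genes past the filter, none was higher and 2 were lower, with a median log2 ratio of -0.35 and -0.49. The 2 were Ccl5, at 4132 against 12026 CPM and 4036 against 10277 CPM, and Ccl4, at 238 against 602 CPM and 195 against 433 CPM, both chemokines that draw immune cells. The granzyme genes Gzmk (log2 0.24 and 0.46) and Gzma (0.52 and 0.35) lay above 0 in both libraries without reaching the fold, whereas 15 of the 20 genes lay below 0 in both. Gzmb, the main granzyme of effector killers, read 105 against 117 CPM and 63.4 against 114 CPM, and Prf1, the pore-forming perforin, was at log2 -0.48 and -0.67. The interferon gene Ifng was at -0.20 and 0.01.

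At 2000 UMIs, Gzmk was more frequent in cycling than in other CD8 cells, with intervals that overlapped in the WT NOD library (27.4 to 32.1 for other CD8 cells). It was found in 35.9% (31.5 to 40.4) and 37.4% (31.4 to 43.7) of cycling cells against 29.7% and 24.3% of other CD8 cells, and in 4 of 1535 and 0 of 1939 B cells, where a count of 0 allows a share of up to 0.155% (3 cells of those counted, here and for other counts of 0). Before thinning, the shares were 77.4% and 73.3% against 47.8% and 42.0%. Rgs16 was found in 47.7% and 44.1% against 35.1% and 32.2%, with 1.04% and 0.774% of B cells. Neither gene was most frequent in the cycling cells of the WT NOD library. Its non-cycling CD8 cells with a transcript of Entpd1 or Havcr2 had Rgs16 in 59.8% (54.3 to 65.0) and Gzmk in 41.7% (36.4 to 47.2) at 2000 UMIs. Gzmb was found in 11.9% and 10.2% of cycling cells and 10.5% and 10.1% of other CD8 cells. Gzmk and Gzmb were found together in 27 of 463 and 11 of 254 thinned cycling cells. Tcf7 and Gzmb were found together in 3 of 463 and 0 of 254, where 0 allows up to 1.18%.

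**Figure D2:**
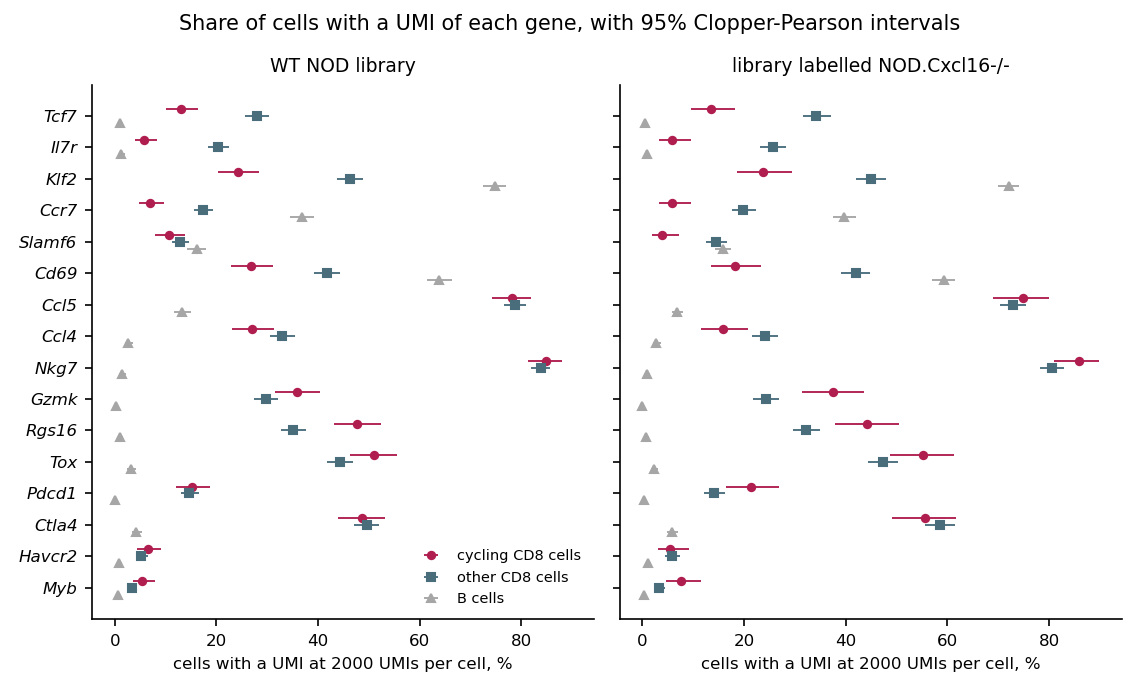
Share of cells with at least 1 transcript of each named gene after thinning to 2000 UMIs per cell, in percent, with 95% Clopper-Pearson intervals, as circles for cycling CD8, squares for other CD8 and triangles for B cells, with 1 panel for each library. Tcf7 is less frequent in cycling than in other CD8 cells (13.0% against 27.9% in the WT NOD library) and Gzmk more frequent (35.9% against 29.7%).

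Exhaustion and fate genes showed no shift of 2-fold as groups. Of 14 inhibitory receptor and ectoenzyme genes past the filter, only Vsir, which encodes the checkpoint protein VISTA, was past the fold, and it was lower (21.4 against 57.7 CPM and 17.3 against 49.9 CPM). Pdcd1, which encodes PD-1, read 83.6 against 86.0 CPM and 99.3 against 98.6 CPM. The ectoenzyme gene Entpd1, which encodes CD39 and marks terminally exhausted cells, read 53.7 against 41.2 CPM and 57.1 against 34.9 CPM. Lag3 was at log2 -0.94 and -0.90. None of 22 fate transcription factors was past the fold. Tox, the regulator of exhaustion, read 378 against 426 CPM and 441 against 489 CPM, and Eomes, a T-box factor of memory and exhausted cells, 98.5 against 89.5 CPM and 100.2 against 79.8 CPM. At 2000 UMIs, Pdcd1 was found in 15.1% and 21.3% of cycling against 14.7% and 14.1% of other CD8 cells. Tox was found in 51.0% and 55.1% against 44.3% and 47.3%, the opposite order to its CPM, so no direction is read from it.

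Tissue residency, cytokine and interferon genes leaned lower, but so did the CD8 T cell markers. Of 12 such markers, several of them selection genes, 11 lay below 0 in both libraries and none was past the fold, with a median log2 ratio of -0.38 and -0.41. The residency list had a median of -0.44 and -0.46, so a lean of that size was not particular to it. Of 20 residency and trafficking genes past the filter, 2 were lower, Rgs10 and Itgae, the latter the integrin chain CD103 that binds epithelium (9.91 against 21.1 CPM and 13.0 against 28.7 CPM). Cxcr6, the receptor for Cxcl16, read 158 against 274 CPM and 220 against 328 CPM, log2 ratios of -0.79 and -0.57. At 2000 UMIs Cxcr6 was found in 24.8% and 34.3% of cycling cells against 29.1% and 27.9% of other CD8 cells, so by frequency the order differed between the libraries and no direction is read from it. The early activation gene Cd69 read 170 against 327 CPM and 121 against 324 CPM. Of 26 cytokine receptor and costimulation genes, 1 was lower, the signalling inhibitor Socs3, a share near the 2.13% of all genes, and the list median was -0.53 and -0.62. Of 22 interferon response genes 3 were lower, Ifit1, Iigp1 and Rtp4, with a list median of -0.79 and -0.76.

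Genes of metabolism and growth leaned higher by less than 2-fold. Of 16 glycolysis genes past the filter, 2 were higher, Tpi1 (139 against 41.3 CPM and 149 against 42.8 CPM) and Pgk1 (268 against 132 CPM and 277 against 121 CPM), both enzymes of the central part of the pathway. None of 89 oxidative phosphorylation genes was past the fold, with a median log2 ratio of 0.41 and 0.47. None of 20 ribosome biogenesis genes was either, with a median of 0.62 and 0.57. Cytosolic ribosomal protein genes, including the Rps6k kinases that share their prefix, had a median of -0.15 and -0.14 over 88 genes, with Rps27l the single one past the fold (457 against 191 CPM and 488 against 227 CPM). The 13 mitochondrially encoded genes lay at -0.10 and -0.11.

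**Figure D3:**
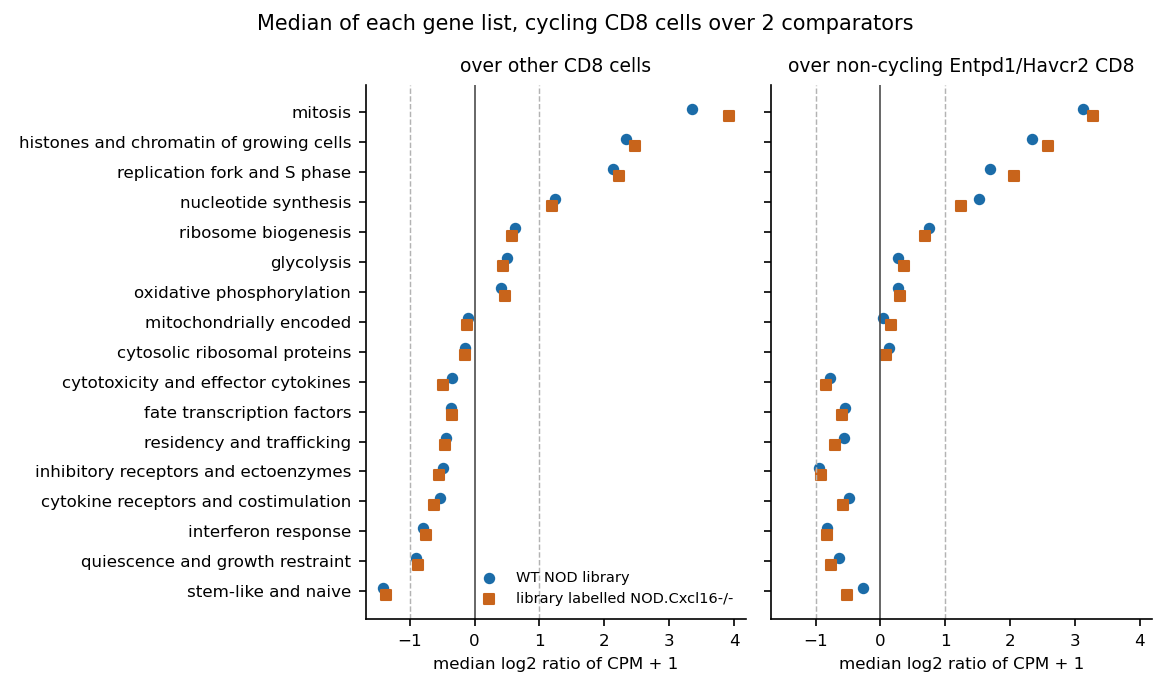
Median log2 ratio of CPM + 1 for each gene list, cycling CD8 cells over other CD8 cells (left) and over non-cycling CD8 cells with Entpd1 or Havcr2 (right), with a circle for the WT NOD library and a square for the other and dashed lines at 2-fold. Against other CD8 cells the mitosis list lies highest (3.35 and 3.92) and the stem-like and naive list lowest (-1.41 and -1.36), and against the Entpd1 or Havcr2 cells the stem-like list lies nearer 0 (-0.27 and -0.51).

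A second comparison asked how cycling cells differed from CD8 cells with signs of terminal exhaustion. These were the 359 and 243 other CD8 cells with a transcript of Entpd1 or of Havcr2, which encodes the checkpoint receptor TIM-3. In this comparison 357 of 7592 genes were higher (4.7%) and 137 lower (1.8%). All 45 mitosis genes and 33 of 37 replication genes were again higher. The stem-like list no longer stood apart, with 0 of 13 genes lower and a median log2 ratio of -0.27 and -0.51. In it Myb was higher (39.5 against 12.0 CPM and 40.8 against 10.9 CPM), and Tcf7 read 83.6 against 56.0 CPM and 83.0 against 73.1 CPM.

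Effector genes were lower than in the Entpd1 or Havcr2 cells. Of 20 genes, 7 were lower (Ccl3, Ccl4, Ccl5, Fasl, Gzmb, Klrd1 and Prf1) and none higher, with a median of -0.77 and -0.83. Ccl4 read 238 against 1125 CPM and 195 against 1063 CPM. Gzmb read 105 against 268 CPM and 63.4 against 300 CPM. Gzmk did not differ by 2-fold (254 against 278 CPM and 239 against 218 CPM). By these values cycling cells carried less of the killer genes of the Entpd1 or Havcr2 cells and about as much Gzmk.

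Inhibitory and residency genes followed. Of 14 inhibitory genes, 7 were lower (Cd101, Cd38, Entpd1, Havcr2, Lag3, Lilrb4a and Vsir), though Entpd1 and Havcr2 chose the comparator. Lag3 read 81.6 against 246 CPM and 70.5 against 197 CPM, whereas Pdcd1 read 83.6 against 130 CPM and 99.3 against 128 CPM. Of 21 residency genes 4 were lower (Ccr2, Cxcr6, Itga1 and Rgs1), and Cxcr6 read 158 against 604 CPM and 220 against 717 CPM. The Entpd1 or Havcr2 cells also carried more myeloid transcripts, with a summed 5092 and 9794 CPM against 2369 and 2728 CPM in cycling cells. Of 9 such genes past the filter 5 were lower in cycling cells, among them Cd74, the invariant chain of class II MHC (819 against 1926 CPM and 955 against 3204 CPM). The part of those transcripts in the differences was not tested.

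A further comparison set cycling CD8 cells against cycling CD4 cells (167 and 200 cells), which share the division programme. Here 65 of 7582 genes were higher (0.857%) and 242 lower (3.19%). No gene of the replication, nucleotide, mitosis or histone lists was past the fold in both libraries, and the mitosis list had a median log2 ratio of 0.32 and 0.23. Of its 47 genes, 39 lay above 0 in both libraries and 1 below. Per cell, the list made up a median of 0.502% and 0.447% of UMIs in the CD8 cells against 0.246% and 0.231% in the CD4 cells. Mki67 read 285 against 267 CPM and 337 against 277 CPM. The 2 populations had similar depth, with a median of 16873 and 18459.5 UMIs in the CD4 cells.

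Lineage genes separated the 2 cycling populations. Of 19 effector genes 13 were higher in the CD8 cells, with a median log2 ratio of 2.01 and 1.67. Gzmk read 254 against 47.5 CPM and 239 against 24.1 CPM, and Nkg7, a granule protein of killer cells, 1255 against 203 CPM and 1379 against 185 CPM. Eomes read 98.5 against 13.9 CPM and 100.2 against 2.34 CPM, Rgs16 417 against 152 CPM and 346 against 125 CPM, and Cxcr6 158 against 76.2 CPM and 220 against 86.1 CPM. Lower in the CD8 cells were the transcription factors Maf (18.9 against 265 CPM and 15.9 against 222 CPM) and Ikzf2 (92.0 against 366 CPM and 146 against 415 CPM). The costimulatory genes Tnfrsf4 (88.1 against 461 CPM and 86.4 against 533 CPM) and Tnfrsf18 (61.5 against 180 CPM and 53.5 against 150 CPM) were lower as well, along with Tcf7 (83.6 against 184 CPM and 83.0 against 167 CPM). The cycling CD4 cells carried more myeloid transcripts, a summed 6938 and 5824 CPM.

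Between the 2 libraries, a small share of genes was past the fold in cycling CD8 cells. Of 7424 genes, 20 were at least 2-fold higher (0.269%) and 9 lower (0.121%) in the library labelled NOD.Cxcl16-/-, and in other CD8 cells 14 (0.189%) and 11 (0.148%) of 7416. In cycling cells the counts were 178 and 173 with each cell thinned to 2000 UMIs, and 145 and 132 without the filter of 10 CPM. Of the genes past the fold as first counted, 1 higher and 3 lower were the same in both populations (5% and 33.3% of the cycling lists, 7.14% and 27.3% of the others). Only 14 of the 20 higher and 8 of the 9 lower genes passed the filter in other CD8 cells. Of these, 10 of the 14 and 8 of the 8 had the same sign there. No gene of the effector, inhibitory, fate, stem-like, residency, cytokine receptor or interferon lists was past the fold. The list medians lay between -0.19 for the interferon genes and 0.15 for the stem-like genes. The replication and mitosis lists lay at -0.04 and -0.03.

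The genes furthest apart included insulin. The 10 highest and 10 lowest genes with a mean of at least 50 CPM were named, leaving out immunoglobulin and T cell receptor segments, mitochondrial and ribosomal protein genes and models without a gene name. Among them, Ins1 and Ins2, the insulin genes of beta cells, read 20.3 and 39.5 CPM in the WT NOD library and 149 and 215 CPM in the other, log2 ratios of 2.82 and 2.42. In the second library a single barcode held 630 of the 777 Ins1 and 866 of the 1124 Ins2 UMIs, and in the WT NOD library 131 of 186 and 278 of 363. Without the top barcode of each gene, the log2 ratios were 2.06 and 2.30. The antibody chain gene Igkc read 248 and 885 CPM (log2 1.83), with 3754 of 4617 UMIs of the second library in 1 barcode, and was at -0.21 without the top barcodes. Ighg2b and Mzb1, of plasma cells, likewise had 98.3% and 82.6% of their UMIs in 1 barcode. Over all 29 genes past the fold, 16 of the 20 higher and 9 of the 9 lower stayed past it without their top barcodes.

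Several lower genes moved alike in other CD8 cells. Hist1h2ap, a histone H2A copy, read 362 and 106 CPM in cycling cells (log2 -1.76) and 26.4 and 6.40 CPM in other CD8 cells (-1.89). Ifi27l2a, an interferon-induced gene, read 1616 and 894 CPM (-0.85) and 1776 and 1037 CPM (-0.78). Polr2l, an RNA polymerase subunit, was at -0.99 and -0.88, and ubiquitin Ubb at -0.61 and -0.72. Stmn1, which destabilises microtubules, read 634 and 424 CPM (-0.58) in cycling cells and 86.7 and 32.6 CPM (-1.38) in other CD8 cells. Ctla2a (-0.63), Nmt2 (-0.58) and Erh (-0.58) were also among the 10 lowest so chosen.

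Higher genes likewise included several shared with other CD8 cells. Capg, an actin-capping protein, read 42.4 and 77.2 CPM in cycling cells (log2 0.85) and 52.4 and 84.2 CPM in other CD8 cells (0.67). Ikzf2 read 92.0 and 146 CPM (0.66) and 107 and 173 CPM (0.68), Camk1d 148 and 236 CPM (0.67) and 254 and 383 CPM (0.59), and the heat shock gene Hsph1 63.9 and 110 CPM (0.77) and 67.2 and 122.7 CPM (0.86). The inducible chaperone Hspa1a read 83.9 and 140 CPM (0.73) in cycling and 133 and 164 CPM (0.29) in other CD8 cells. None of these reached 2-fold. Wdr89 (0.78), Tyrobp (0.63) and Cd226 (0.62) were the others among the 10 highest so chosen.

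Gzmb was the effector gene furthest apart between the libraries in cycling cells. It read 105 CPM in the WT NOD library and 63.4 CPM in the other, a log2 ratio of -0.71 (counting interval -0.91 to -0.54), with a transcript in 29.1% and 25.1% of cells. In other CD8 cells it read 117 and 114 CPM, a log2 ratio of -0.04. Leaving out the top barcode of each library gave -0.73. The killer receptor gene Klrk1 read 106 and 69.8 CPM (-0.59) in cycling and 143 and 116 CPM (-0.29) in other CD8 cells. Gzmk stood at -0.09, Rgs16 at -0.27 and Cxcr6 at 0.48 (0.26 in other CD8 cells). Whether any of these would recur in further animals was not tested.

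**Figure D4:**
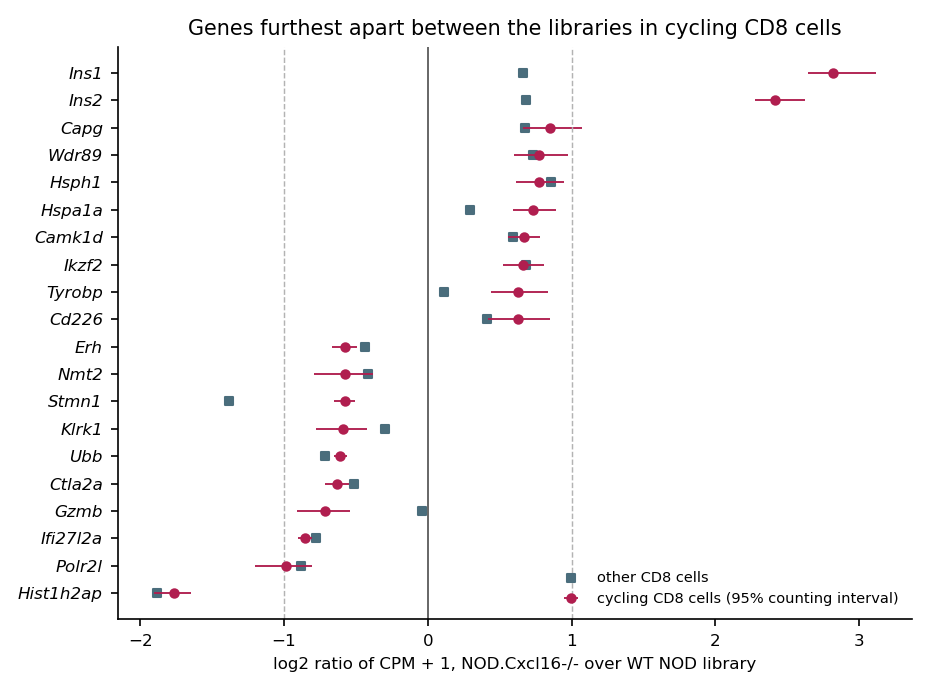
Log2 ratio of CPM + 1, NOD.Cxcl16-/- over WT NOD, for the 10 highest and 10 lowest genes in cycling CD8 cells with a mean of at least 50 CPM, as circles with 95% counting intervals as bars, beside the ratio of the same genes in other CD8 cells as squares, leaving out immunoglobulin, T cell receptor, mitochondrial and ribosomal protein genes and unnamed models. Dashed lines mark 2-fold. Hist1h2ap lies low in both (-1.76 and -1.89), whereas Gzmb lies low in the cycling cells (-0.71) and near 0 in the others (-0.04).

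The T cell receptor genes were unevenly used. Each T cell carries a rearranged alpha and beta chain whose variable gene is kept by all its daughters, so V genes follow families of related cells. These V genes were picked after their values were seen, and near-identical V genes share reads, and the depth differs between the populations. A Trbv transcript was found in 54.3% and 53.3% of cycling and 29.0% and 27.5% of other CD8 cells. Of cells with one, 53 of 136 cycling cells of the second library carried Trbv3 (39.0%; 30.7 to 47.7) against 19.5% of its other CD8 cells. In the WT NOD library the shares were 11.4% and 8.96%. Trbv3 was thus more frequent among the cycling cells of the second library than among its other CD8 cells, and than in either population of the first.

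Alpha genes were uneven in the WT NOD library. Of the 248 cycling cells with a Trav transcript, 38 carried Trav7-3 (15.3%; 11.1 to 20.4) against 4.56% of other CD8 cells, and 52 carried Trav8d-1 (21.0%; 16.1 to 26.6) against 10.9%. In the library labelled NOD.Cxcl16-/-, Trav7-3 was found in 0 of 93 cycling cells, which allows a share of up to 3.23%, and Trav8d-1 in 7.53%. Among cells of the WT NOD library with both an alpha and a beta V transcript, 29 of 161 cycling cells carried Trav8d-1 with Trbv19 (18.0%) against 19 of 164 other CD8 cells (11.6%). The pair Trav7-3 with Trbv13-2 was carried by 14 of 161 (8.70%) against 2 of 164. Of all 470 cycling and 1733 other CD8 cells, the first pair was found in 6.17% and 1.10%, and the second in 2.98% and 0.115%. Trav7-3 was not tied to 1 beta gene in the cycling cells. It was also found with Trbv13-3 in 12 of 161 (7.45%) against 8 of 164 (4.88%), with Trbv12-2 in 9 and with Trbv31 in 8 cycling cells. Trav16n with Trbv13-3 was found in 15 of 161 (9.32%) against 11 of 164 (6.71%). More cycling than other CD8 cells showed any V transcript, and the part of depth in these gaps was not tested. Trav16n was used alike, at 27.0% and 31.2% of cycling and 30.4% and 33.4% of other CD8 cells with a Trav transcript.

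**Figure D5:**
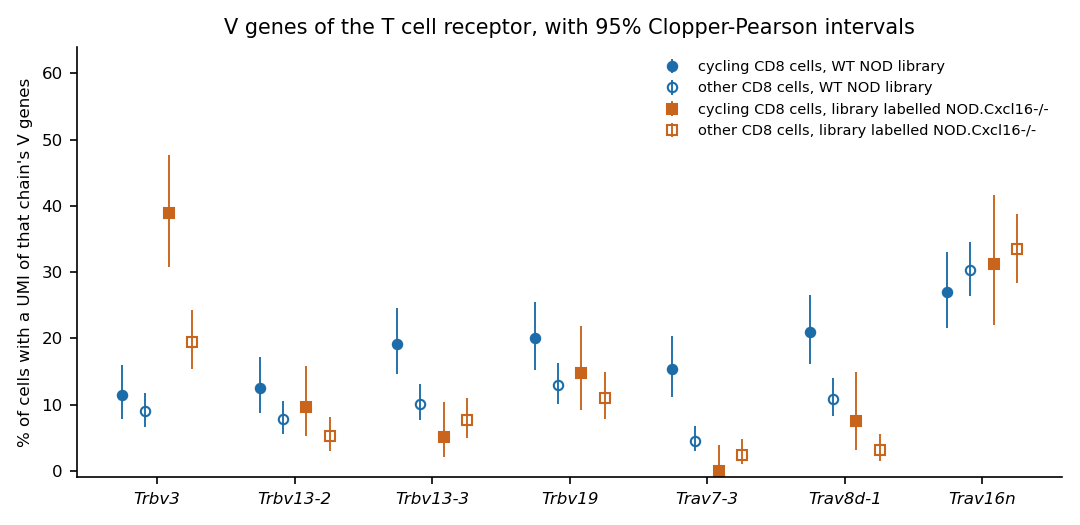
Share of cells carrying each V gene among cells with a transcript of any V gene of that chain, in percent, with 95% Clopper-Pearson intervals, for cycling and other CD8 cells of each library. Trbv3 is highest in cycling cells of the NOD.Cxcl16-/- library (39.0%), and Trav7-3 and Trav8d-1 are higher in cycling than in other CD8 cells of the WT NOD library (15.3% against 4.56% and 21.0% against 10.9%).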

How the data were processed

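The deposited files held 1 matrix of raw UMI counts per gene and barcode for each library, made by the authors with Cell Ranger 7.0.1 against mm10, per the submitters' processing notes. The annotation and the treatment of intronic reads are not given in the sources used here. Counts of genes with the same symbol were summed. Cells were selected from these counts as described above, counts were summed over the cells of a population in each library, divided by the population's total and given as CPM. Genes with a mean of at least 10 CPM over the sums compared were used, and ratios are log2 of CPM with 1 CPM added. A gene was called past the fold at a log2 ratio of 1 in each library, or, between the libraries, at 1. With 1 library for each genotype, cells are not replicates, so no model was fitted. Shares carry exact Clopper-Pearson intervals, and ratios carry exact conditional binomial intervals computed without the added CPM.

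The members and gene lists were chosen with earlier results of these data known. The genes named are those furthest past the fold in both libraries (8 within and 12 outside the cell cycle lists, and the 12 lowest), the 10 highest and 10 lowest between the libraries with a mean of at least 50 CPM, up to 4 members of each list, and the selection and marker genes with Cxcl16 and Cxcr6. The ranked genes leave out immunoglobulin and T cell receptor segments, mitochondrial and ribosomal protein genes and models without a gene name. Other genes within a list were named after their values were seen. Some genes that the rule names are not reported here. Alternatives were other thresholds, scalings (TMM and median-of-ratios factors), added CPM, filters, thinning and doublet removal. The steps were tested on simulated data. Python 3.11.15, numpy 2.4.6, scipy 1.17.1, pandas 2.3.3, scanpy 1.11.5 and matplotlib 3.10.9 were used.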

Additional observations from a re-analysis of the deposited data

Results flagged for a closer look

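The immunoglobulin kappa chain gene Igkc moved in opposite directions in the 2 libraries. Its log2 ratio of CPM in cycling over other CD8 cells was -1.35 for WT NOD and 1.46 for NOD.Cxcl16-/-, which differ by 2.81. With 1 library for each genotype the difference was not tested. Of the 4617 Igkc UMIs in cycling cells of the second library, 3754 lay in 1 barcode, and with no transcript of Cd79a, C1qa and Lyz2 allowed the ratio there was -0.999.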

How the results depend on the processing

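No paired analysis was possible because each genotype has 1 library. Of the share of CD8 cells that cycle, the values moved with the threshold on Mki67 and Top2a, to 34.7% and 30.3% at 1 transcript, 16.4% and 14.4% at 3, and 14.7% and 12.6% at 4 (the last chosen after seeing the data). They were 9.15% and 6.39% with the selection made at 2000 UMIs, and 23.4% in the WT NOD library at 1000 genes. The share was lower in the library labelled NOD.Cxcl16-/- under each of the alternatives run. Of the 424 genes higher and 160 lower in cycling cells, the counts were 897 and 611 at 1.5-fold, 160 and 59 at a mean of 50 CPM, 267 lower with no filter, 100 lower with 5 CPM added and 98 lower with the mean of the CPM of each cell. Between the libraries, 20 and 9 became 94 and 59 at 1.5-fold, 145 and 132 with no filter, 178 and 173 with cells thinned to 2000 UMIs, 13 and 4 with 5 CPM added, 4 and 2 at a mean of 50 CPM, 32 higher at 3 transcripts and 11 higher with Cd79a, C1qa and Lyz2 at 0. Thinned sums hold fewer UMIs for each gene and the unfiltered comparison adds genes of low count, both by construction, and the cause of the other changes was not tested. Igkc between the libraries reversed to -0.42 with Cd79a, C1qa and Lyz2 at 0 and to -0.21 without the top barcode of each gene, an alternative added after seeing the data. Pecam1 in the WT NOD library reversed to 0.84 against the Entpd1 or Havcr2 cells. Of 2978 alternative values for single genes in cycling over other CD8 cells, 2353 stayed, 624 moved and 1 reversed, judged against the width of the counting interval. Of 1362 such values between the libraries, 1205 stayed, 155 moved and 2 reversed. Of 468 alternative list medians in cycling over other CD8 cells, 225 stayed and 243 moved, judged against the gap between the 2 libraries, and none reversed. TMM and median-of-ratios factors moved the median of all genes by less than 0.1.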
